A study of Mus musculus with 8 samples.

Results

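Nucleoporins are the proteins of the nuclear pore complex, and 30 genes for them were found among the 48440 genes of the tables, 21989 of which had a protein-coding transcript. They were taken by symbol: Nup or Nupl followed by a number, or Tpr, Aaas, Ndc1, Pom121, Seh1l, Sec13 or Rae1, with at least 1 protein-coding transcript. All 30 passed the filter on low counts, which kept 25045 genes.

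The study sequenced RNA from mouse oocytes and from pluripotent cells in culture, in 8 stranded paired-end libraries, 2 in each of 4 groups. MII oocytes are arrested at metaphase of the second meiotic division, and GV oocytes, which still hold their nucleus (the germinal vesicle), are arrested before the first. Per the labels, females received PMSG (5 units) and, 48 h later, an injection, and GV oocytes were kept from resuming meiosis in 2 µM milrinone. The MII label repeats that text and gives no maturation step. ESC are embryonic stem cells kept in 15% serum with LIF, PD0325901 and CHIR99021, and EpiC are epiblast cells made in vitro: ESC plated for 24 h, then cultured for about 56 h without LIF and these inhibitors. Strain, age and the number of oocytes or cultures pooled in a library are not given in the sources used here.

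Pores sit in the nuclear envelope and carry all traffic of protein and RNA between nucleus and cytoplasm. Each is built from copies of a scaffold of Y-shaped complexes and an inner ring, held in the membrane by transmembrane nucleoporins, with a central channel of phenylalanine-glycine repeats, filaments on the cytoplasmic side and a basket on the nuclear side. The envelope breaks down when an oocyte resumes meiosis, so that an MII oocyte has no nucleus, and stored mRNA and protein serve the nuclei that form after fertilisation.

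Short stretches of the 3′ ends are shown first, because stored oocyte mRNAs are known to be controlled through their 3′ UTRs: the letters TTTTAT or TTTTAAT, known as the cytoplasmic polyadenylation element, are read there together with the polyadenylation signal. Of the 26 members whose most abundant coding transcript had a 3′ UTR of at least 100 bases in GENCODE M21, 6 held either motif in the last 100 bases, on the mRNA strand. That is 23.1%, against 18.5% of 16347 tested genes. For the tested genes the longest coding transcript with a 3′ UTR was searched, so these shares rest on unlike choices of transcript. Windows of 30 bases around the last match in each of the 6 members follow, 5′ to 3′, with the match in capitals.
Nup98: tTTTTATtaaaaaatatatatatatatata
Nup54: aataaattgttaatttgtaaTTTTATgtaa
Nup62: cagtcatgtctaTTTTATttctctgcactc
Nup35: tccaaataaactttgtcaatTTTTATgtgc
Nup37: aaaaatccttatTTTTATatcaaacatact
Rae1: ccctgtgttgtgTTTTATaataaaatattt
The match began 99 bases before the transcript end in Nup98, 85 in Rae1, 83 in Nup62 and 79 in Nup37. In both Nup54 and Nup35 it began 10 bases before the end, downstream of the last AATAAA or ATTAAA, which began 30 bases before the end in Nup54 and 26 in Nup35. This motif was chosen with the values below known, and a match is a description and not a site.

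Upstream sequence is shown for Nup133 and Nup214, the 2 members that fell in MII oocytes below. RefSeq promoters on GRCm38.p6 were matched for 25 of the 30 members, and the 250 bases before the start were searched on both strands for 10 motifs chosen after the values were known. The palindrome TGACGTCA, the cyclic AMP response element, was found in these 2 members (8% of 25) and in 1.55% of 32851 promoters. For a member, only the start nearest to that of its most abundant coding transcript was taken. The 32851 promoters are all those of the set, without a choice of start or of tested genes. This unlike choice holds for every promoter share given here. In the sequences, on the strand of the gene, capitals mark TGACGTCA, GGGCGG (here as its reverse complement CCGCCC) and CCAAT (or ATTGG).
Nup133, chr8:123949266-123949515, minus strand: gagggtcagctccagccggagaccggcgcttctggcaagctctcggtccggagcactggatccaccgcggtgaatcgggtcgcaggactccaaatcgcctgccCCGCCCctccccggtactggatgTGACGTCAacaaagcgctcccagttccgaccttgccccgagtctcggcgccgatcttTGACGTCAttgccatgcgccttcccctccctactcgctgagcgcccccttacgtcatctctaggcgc
Nup214, chr2:31974200-31974449, plus strand: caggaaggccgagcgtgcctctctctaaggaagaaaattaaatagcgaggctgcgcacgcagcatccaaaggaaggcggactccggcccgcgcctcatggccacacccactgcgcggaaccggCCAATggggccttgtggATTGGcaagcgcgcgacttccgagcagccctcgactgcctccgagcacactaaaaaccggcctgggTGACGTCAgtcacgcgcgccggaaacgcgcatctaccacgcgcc
The motif GGGCGG was in 16 of the 25 members (64%) and 32.7% of all promoters, CCAAT in 11 (44%) and 33.9%, CCGGAAG in 6 (24%) and 6.91%, and the NRF1 motif in 3 (12%) and 0.782%. CACGTG was in 3 members, AAGATGGCG in 2, TATAAA and TTTCCCGC in 1 each and ATTTGCAT in 0. The members' upstream sequences had a median GC content of 63.2%, against 52.4% for all promoters, and the part of base composition in these shares was not tested.

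Total estimated counts ran from 47463546 to 196788239, and replicate 2 was the deeper library of every group by 2.36 to 3.31 times. Gm42418, a gene model that collects ribosomal RNA reads, took 0.022% to 0.151% of the counts in replicate 1 and 1.66% to 22.7% in replicate 2. The 7 oocyte markers summed to between 22555 and 34485 TPM (a transcript's level per length, scaled to the library) in oocytes and to at most 11.0 TPM in cultured cells. Cumulus and granulosa markers (11 genes) summed to 56.2 and 50.8 TPM in MII with 3 and 0 of them at 0, and to 34.0 and 162 TPM in GV with 2 and 0 at 0. Of these, Cyp19a1 alone had 47.4 and 44.5 TPM in MII and 23.4 and 18.3 TPM in GV, and Inha 0.215 and 1.77 TPM in MII and 4.66 and 105 TPM in GV. Formative epiblast markers (4 genes) summed to 607 and 137 TPM in EpiC, libraries far from each other, and to 53.2 and 28.0 TPM in ESC. Markers of naive and general pluripotency (5 genes) summed to 1425 and 853 TPM in EpiC and 3344 and 2408 TPM in ESC. Fibroblast markers (7 genes) summed to 142 and 63.4 TPM in EpiC and 2.64 and 3.75 TPM in ESC, with at most 1 at 0, and Tagln alone had 134 and 60.04 TPM in EpiC and 0.939 and 1.81 TPM in ESC. The part of these in the results was not tested, and in bulk RNA fewer cells of a type and less RNA per cell cannot be told apart.

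By summed TPM, nucleoporin mRNA was most abundant in MII oocytes. Summed over the 30 members, the level was 3876 and 4314 TPM in MII oocytes, 2612 and 2320 TPM in GV oocytes, 2372 and 1409 TPM in EpiC, and 2134 and 1674 TPM in ESC. Both MII libraries lay above all others, and the 2 EpiC libraries spanned both ESC libraries. By estimated counts the order was less clear: the members took 0.504% and 0.557% of the counts in MII, 0.417% and 0.372% in GV, 0.513% and 0.290% in EpiC, and 0.449% and 0.329% in ESC, so 1 EpiC library lay above 1 MII library. Sums over the Y complex were 1395 and 1527 TPM in MII against 904 and 896 TPM in GV. Those of the nuclear basket were 199 and 204 TPM in MII against 138 and 73.7 TPM in GV. In EpiC the basket summed to 254 and 182 TPM and in ESC to 214 and 184 TPM, so MII was not highest for it. The median member had 75.8 and 70.9 TPM in MII, 50.8 and 36.5 TPM in GV, 73.8 and 40.4 TPM in EpiC, and 65.3 and 43.7 TPM in ESC. By that measure MII and EpiC overlapped. The 6 genes of the cytoplasmic side summed to 641 and 702 TPM in MII and to 693 and 575 TPM in GV, ranges that overlap.

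**Figure D1:**
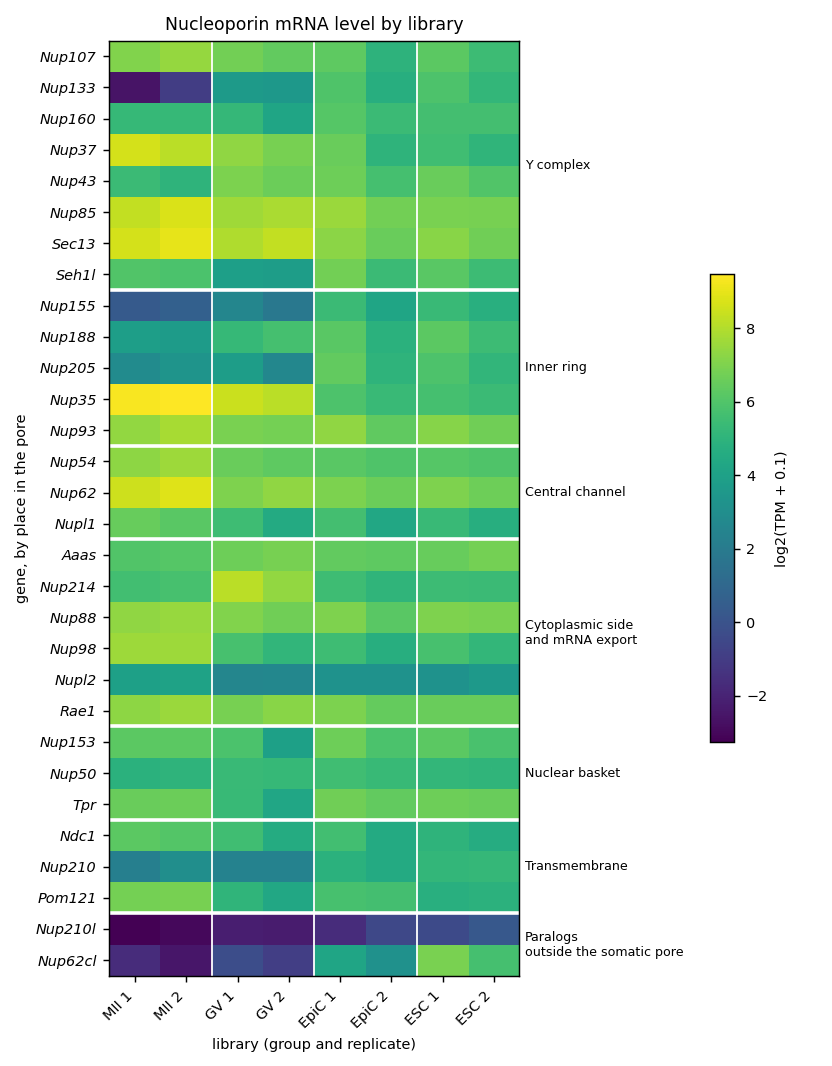
Level of the 30 nucleoporin genes in each library, as log2(TPM + 0.1) by colour, with genes in rows grouped by their place in the pore and the 8 libraries in columns. Nup133 and Nup155 are dark and Nup35 bright in the oocyte columns, while the scaffold genes have more even colours in EpiC and ESC.

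The comparison of MII with GV oocytes asks how nucleoporin mRNAs differ between oocytes after and before the envelope breaks down. Relative to the bulk of mRNAs, 20 of the 30 members were higher in MII (called, adjusted p under 0.05 in edgeR's quasi-likelihood test), 2 were lower and 8 did not pass. Over all genes tested, 17.4% were called higher and 22.2% lower (39.6% in either direction). The median log2 fold change was 1.90 over the members and −0.53 over all genes. These folds are on the TMM scale, which sets the libraries by their bulk of genes, and errors given after ± are SE. The TMM factors were 0.422 and 0.405 in MII and 1.07 and 1.15 in GV, so the folds depend strongly on this scale. With limma on log2(TPM + 1), which moved the median of all genes by −0.61, 8 members were called higher and 4 lower, and the sign turned from higher to lower for Aaas, Nup50 and Nup205, none of them called on the TMM scale. Nup93, Nup88 and Nup43 moved further than that median, from 1.96 to 0.78, from 1.74 to 0.56 and from −0.43 to −1.57. The labels state neither a spike-in nor the RNA mass per oocyte, so amounts per oocyte are not known. The TPM of both MII libraries lay above both GV libraries for 19 members (17.3% of all genes) and below them for 9 (56.2% of all genes).

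In the Y complex, the scaffold that coats the membrane on both faces of the pore, 6 of 8 members rose, 1 fell and 1 did not pass. Nup133 (ENSMUSG00000039509.7, GRCm38 chromosome 8, 123897123 to 123949265, minus strand), which forms the far end of the stalk of the Y, had 0.0687 and 0.42 TPM in MII oocytes, against 12.9 and 11.3 TPM in GV oocytes. Its estimated counts were 16.5 and 272 in MII and 3716 and 8897 in GV. The groups did not overlap, and the log2 fold change was −4.39 ± 0.78 (SE, with adjusted p = 0.002). Seh1l, a WD-repeat protein of one arm that also belongs to the GATOR complex of amino acid sensing, went the other way, with 64.6 and 58.3 TPM in MII against 15 and 13.8 TPM in GV and a log2 fold change of 3.25 ± 0.44 (SE, with adjusted p = 0.000681). Nup37, a small WD-repeat member bound to Nup160, had 399.8 and 288 TPM in MII against 164 and 118 TPM in GV (log2 fold change 2.45 ± 0.45).

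Nup85, Sec13 (also a coat protein of COPII vesicles) and Nup107 rose by log2 fold changes of 1.95 ± 0.39, 1.85 ± 0.37 and 1.84 ± 0.45. Nup160 was called at 1.63 ± 0.55 (SE, with adjusted p = 0.0397), although its level was 38.1 and 37.9 TPM in MII and 37.2 and 18.5 TPM in GV, so MII lay above the higher GV library by under 1 TPM. Its call was lost without MII replicate 1 (1.39), MII replicate 2 (1.66) or GV replicate 2 (1.10), and that of Nup107 without MII replicate 2 (1.49) or GV replicate 2 (1.74). Nup43, another WD-repeat member, is given although it did not pass, as are Nup155, Nup205, Nup188 and Nup62cl below, chosen after their values were seen. Its level was 41.9 and 31.8 TPM in MII against 125 and 97.3 TPM in GV, with a log2 fold change of −0.43 ± 0.36 (SE, with adjusted p = 0.372). On the log2(TPM + 1) scale Nup43 was called lower, at −1.57.

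In the Y complex, Nup133 thus stood far below the other members in MII oocytes. Within a library, where no scaling between libraries enters, the TPM ratio of Nup133 to its stalk neighbour Nup107 was 0.000512 and 0.00241 in MII, 0.120 and 0.131 in GV, 0.792 and 0.844 in EpiC, and 0.773 and 0.832 in ESC. None of the 4 groups overlapped another except EpiC and ESC. The SD of log2 TPM over the 8 Y complex genes was 4.10 and 3.33 in MII, 1.68 and 1.87 in GV, 0.54 and 0.74 in EpiC, and 0.58 and 0.67 in ESC. Nup133 was the lowest of the 8 in every oocyte library and also in both EpiC libraries (62.6 and 26.2 TPM), while Nup37 was lowest in both ESC libraries. In MII the genes other than Nup133 had at least 31.8 TPM (Nup43). These SD values include Nup133, so they do not show a wider spread among the others in MII than in GV. The ratios were chosen after the levels had been seen and are given without a test.

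In the inner ring, the scaffold around the channel, Nup35 and Nup93 rose and the other 3 genes did not pass. Nup35 (ENSMUSG00000026999.14, GRCm38 chromosome 2, 80617236 to 80658906, plus strand), which binds membrane and links the ring's parts, was the most abundant member in both oocyte groups, at 642 and 708 TPM in MII against 345 and 287 TPM in GV. Its log2 fold change was 2.26 ± 0.34 (SE, with adjusted p = 0.000915), with no overlap. Nup93, the hub to which the other ring proteins bind, had 169.8 and 226 TPM in MII against 118 and 110.1 TPM in GV (log2 fold change 1.96 ± 0.38). Nup155, a large scaffold protein next to the membrane, had 1.15 and 1.47 TPM in MII against 5.93 and 3.43 TPM in GV. These did not overlap, yet the log2 fold change of −0.66 ± 0.43 (SE, with adjusted p = 0.256) did not pass, and the gene was called lower with log2(TPM + 0.1), at −1.72. For Nup205, an adaptor scaffold, the levels were 7.34 and 9.78 TPM in MII and 14 and 6.18 TPM in GV, which overlap, and its log2 fold change was 0.999 ± 0.57, turning to −0.13 on either log2 TPM scale. Nup188 had 14.6 and 13.2 TPM in MII against 38.6 and 53.2 TPM in GV, with no overlap. Its log2 fold change of −0.44 ± 0.46 (SE, with adjusted p = 0.477) did not pass.

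All 3 genes of the central channel rose. Nup62, the core of the trimer whose repeats fill the channel, had 365 and 465 TPM in MII against 128 and 163 TPM in GV, a log2 fold change of 2.67 ± 0.36 (SE, with adjusted p = 0.000688). Its partners Nup54 and Nupl1 (Nup58) rose by 2.22 ± 0.33 and 2.42 ± 0.46, with 156 and 196 TPM in MII against 95 and 80.1 TPM in GV for Nup54. Neither Nup62 nor Nup54 overlapped between the groups.

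On the cytoplasmic side, 4 of 6 members rose, 1 fell and 1 did not pass. Nup98 (ENSMUSG00000063550.8, GRCm38 chromosome 7, 102119398 to 102210176, minus strand), a repeat protein of the transport barrier, had 191 and 192 TPM in MII against 54.2 and 34.1 TPM in GV, a log2 fold change of 3.22 ± 0.38 (SE, with adjusted p = 0.000545). Rae1, which binds Nup98 and acts in mRNA export and at the spindle, had 159 and 188 TPM in MII against 117 and 147 TPM in GV (1.56 ± 0.33). Nup214, a filament protein that docks the export helicase Ddx19, had 48.3 and 54.6 TPM in MII against 285 and 169 TPM in GV, with a log2 fold change of −1.34 ± 0.39 (SE, with adjusted p = 0.0227). The groups did not overlap, but this call was lost without MII replicate 1 (−1.35), MII replicate 2 (−1.55) or GV replicate 1 (−0.97), with relative log expression (−1.12) and with the length offset (−0.95).

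Nup88 is the partner of Nup214 in the filament, and it moved the other way, with 164 and 182 TPM in MII against 131 and 104 TPM in GV and a log2 fold change of 1.74 ± 0.36 (SE, with adjusted p = 0.00418). The TPM ratio of Nup214 to Nup88 within a library was 0.295 and 0.299 in MII, 2.17 and 1.62 in GV, 0.359 and 0.449 in EpiC, and 0.347 and 0.361 in ESC. The GV libraries lay above 1 and all others below it.

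**Figure D2:**
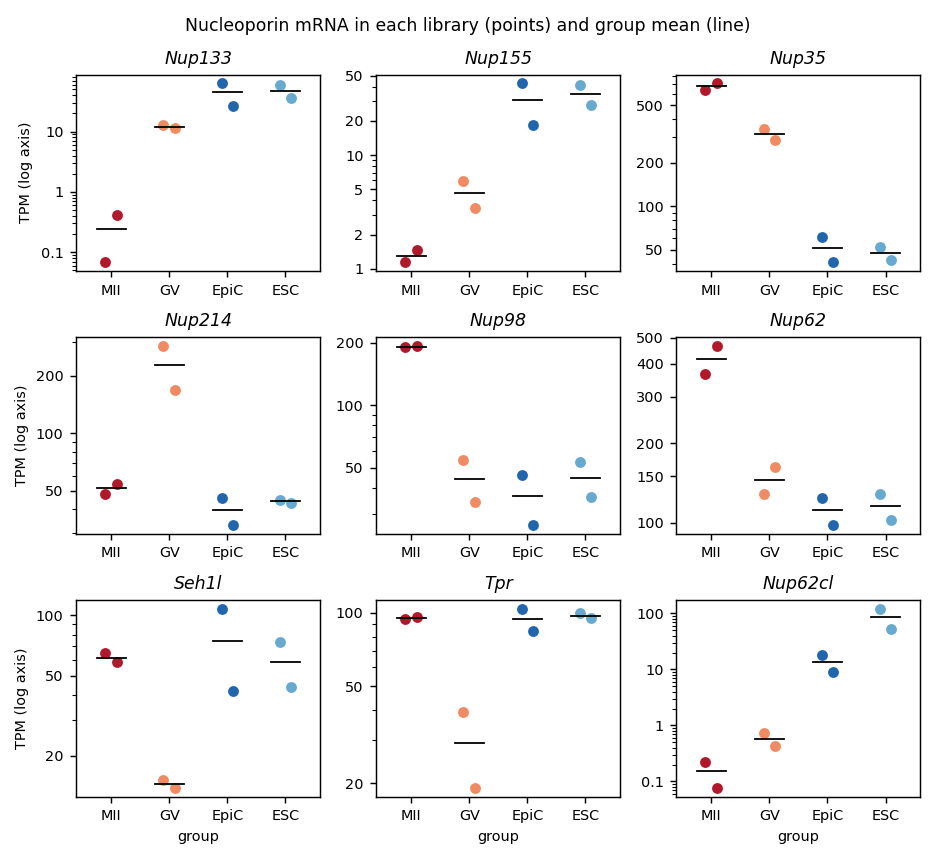
TPM on a log axis of 9 nucleoporin genes in each library (points) with the group mean (line), for MII and GV oocytes, EpiC and ESC. Nup133 and Nup155 are lowest in MII, Nup35, Nup98 and Nup62 highest in MII, and Nup214 highest in GV.

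In the nuclear basket, Tpr, the coiled-coil protein that forms its filaments, had 94.5 and 96.3 TPM in MII against 39.3 and 19.2 TPM in GV, a log2 fold change of 3.16 ± 0.60 (SE, with adjusted p = 0.00268). Nup153, which anchors the basket, had 75.7 and 75.5 TPM in MII against 57.3 and 15.7 TPM in GV (2.28 ± 0.55), with GV libraries far from each other. All 3 transmembrane genes rose. Pom121, needed for pore assembly in interphase, had 112 and 114 TPM in MII against 33 and 20.8 TPM in GV, a log2 fold change of 3.24 ± 0.37 (SE, with adjusted p = 0.000524). Ndc1, which recruits scaffold and Aaas to the membrane, rose by 2.07 ± 0.46. Nup210, a glycoprotein with its bulk in the lumen of the envelope, was called at 2.07 ± 0.37 while its TPM overlapped, at 4.53 and 8.16 in MII and 5.13 and 5.12 in GV.

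The remaining members without a call in MII against GV were Nup50, Aaas, Nup210l and Nup62cl. Nup62cl, a paralog of Nup62, was close to 0 in oocytes, at 0.224 and 0.0777 TPM in MII and 0.725 and 0.427 TPM in GV, from 2 and 7 estimated counts in MII and 19 and 64 in GV. Its log2 fold change of −1.72 ± 0.65 (SE, with adjusted p = 0.0633) did not pass, and passed without the count filter (−1.93). Nup210l, a paralog of Nup210 known from the mouse testis, had at most 0.120 TPM in oocytes and at most 1.08 TPM in any library.

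The comparison of EpiC with ESC asks whether leaving the naive state changes pore genes. Of the 30 members, 0 were called higher, 1 lower and 29 did not pass, against 2.63% of all genes called higher and 2.83% lower (5.46% in either direction). The median log2 fold change was −0.02 over the members and 0.03 over all genes. The members that did not pass lay between −0.95 (Nup210l) and 0.92 (Pom121, adjusted p = 0.179). A p that misses the threshold does not show that the 2 states have the same levels. The TPM of both EpiC libraries lay above both ESC libraries for 2 members, Nup50 and Pom121 (21.6% of all genes), and below them for 4, Aaas, Nup210, Nup210l and Nup62cl (22.2% of all genes).

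The called gene was Nup62cl (ENSMUSG00000072944.11, GRCm38 chromosome X, 140006805 to 140062712, minus strand). It had 18.3 and 8.89 TPM in EpiC against 119 and 51.6 TPM in ESC, and every EpiC library lay below every ESC library. The log2 fold change was −2.62 ± 0.52 (SE, with adjusted p = 0.022). The call was lost without EpiC replicate 2 (−2.27), without ESC replicate 1 (−1.92) and with only the EpiC and ESC libraries in the model (−2.62, adjusted p = 0.0871).

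**Figure D3:**
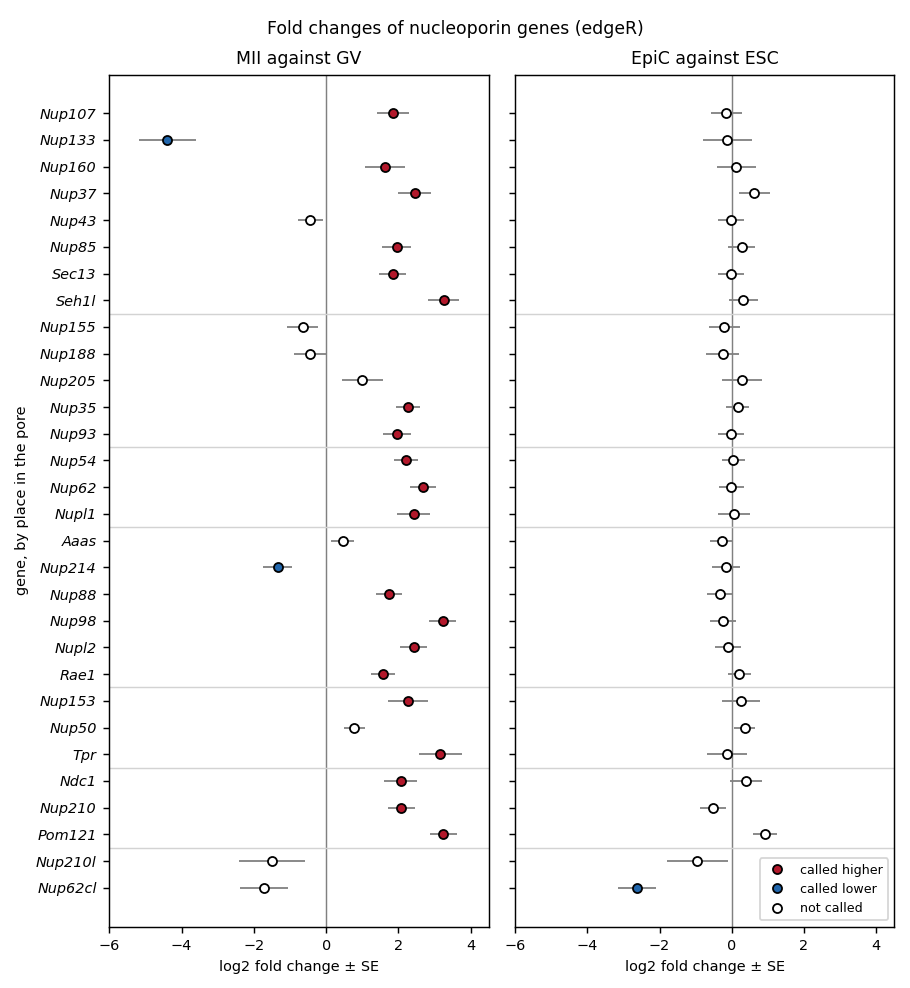
Log2 fold change ± SE of each nucleoporin gene in MII against GV (left) and EpiC against ESC (right), with called genes filled. In the left panel 20 genes are called higher and Nup133 and Nup214 lower, and in the right panel Nup62cl alone is called.

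Whether the MII against GV change differs from the EpiC against ESC change was tested by the difference of the 2 changes, which share no libraries. It was called positive for 15 members, negative for 1 and not called for 14, against 13.2% and 16.4% of all genes (29.7% in either direction). The median difference was 1.85 for the members and −0.69 for all genes. On the log2(TPM + 1) scale 5 were called positive and 2 negative. Without ESC replicate 1 the count of positive calls was 9, and without EpiC replicate 2 it was 10. The difference was largest for Nup98 (3.46 ± 0.51, adjusted p = 0.00229), Tpr (3.30 ± 0.80) and Seh1l (2.93 ± 0.58) among positive calls. The call of Tpr was lost without MII replicate 1 (2.87). Nup133 had the negative call, at −4.27 ± 1.001 (SE, with adjusted p = 0.0119), and kept it without each library in turn.

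The comparison of GV oocytes with ESC sets the oocyte before maturation against a cycling pluripotent cell. In GV oocytes 6 members were higher, 7 lower and 17 did not pass, against 28.3% of all genes higher and 31.3% lower (59.6% in either direction). The median log2 fold change was 0.31 over the members and −0.51 over all genes. Both GV libraries lay above both ESC libraries in TPM for 11 members (35% of all genes) and below them for 10 (48.6% of all genes). This comparison shares its GV libraries with MII against GV, and its ESC libraries with EpiC against ESC. On the log2(TPM + 1) scale 4 members were higher and 9 lower, and with only the GV and ESC libraries in the model 10 were higher and 8 lower.

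Among the higher members, Nup35 had 345 and 287 TPM in GV against 52.1 and 42.1 TPM in ESC, with a log2 fold change of 3.11 ± 0.35 (SE, with adjusted p = 0.000106). Nup214 had 285 and 169 TPM in GV against 44.8 and 43.1 TPM in ESC (2.66 ± 0.41, adjusted p = 0.000601). Both were several times as abundant in every GV library as in any ESC library. Nup37 had 164 and 118 TPM in GV against 47 and 33.4 TPM in ESC (2.13 ± 0.45). Nup85 and Sec13, also of the Y complex, rose by 1.57 ± 0.39 and 1.56 ± 0.37, and each call was lost without ESC replicate 2 (1.43 for Nup85 and 1.36 for Sec13). Rae1 was called at 0.95 ± 0.32 and lost its call without either ESC library (0.95 each) or GV replicate 2 (0.75).

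Among the lower members, Nup62cl had 0.725 and 0.427 TPM in GV against 119 and 51.6 TPM in ESC, with a log2 fold change of −7.45 ± 0.66 (SE, with adjusted p = 3.07e-05). Nup155 (ENSMUSG00000022142.7, GRCm38 chromosome 15, 8109273 to 8161247, plus strand) had 5.93 and 3.43 TPM in GV against 41.6 and 27.6 TPM in ESC (−2.58 ± 0.45, adjusted p = 0.00114). Neither gene overlapped between the groups. Nup210 had 5.13 and 5.12 TPM in GV against 36.4 and 36.6 TPM in ESC (−3.32 ± 0.39). Seh1l, Tpr and Nup205 were called lower at log2 fold changes of −1.70 ± 0.42, −1.87 ± 0.57 and −1.82 ± 0.58. The call of Seh1l was lost without GV replicate 1 (−1.42), that of Tpr without GV replicate 2 (−1.27) or ESC replicate 1 (−1.60), and that of Nup205 without GV replicate 2 (−1.36) or ESC replicate 1 (−1.25). Nup210l, at 34 and 80 estimated counts in GV against 131 and 745 in ESC, was called at −2.65 ± 0.89 and lost its call without GV replicate 1 (−2.41), GV replicate 2 (−2.60) or ESC replicate 2 (−2.21).

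Nup133 did not pass in GV against ESC, at 12.9 and 11.3 TPM in GV against 59.3 and 36 TPM in ESC and a log2 fold change of −1.65 ± 0.69 (SE, with adjusted p = 0.0639), although both GV libraries lay below both ESC libraries. It passed with DESeq2 (−1.71), without the count filter (−1.38) and with only the GV and ESC libraries in the model (−1.44).

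MII oocytes against EpiC had 21 members higher, 4 lower and 5 that did not pass, against 28.5% of all genes higher and 39.6% lower (68% in either direction). The median log2 fold change was 1.78 over the members and −1.23 over all genes. On the log2(TPM + 1) scale, which moved the median of all genes by −0.66, 10 members were higher and 7 lower, and 4 of the called genes (Aaas, Nup153, Nup50 and Seh1l) changed sign, as did Nup160 and Nup43, which had no call. Their calls were also lost without 1 library: Aaas without EpiC replicate 1 (1.03), Nup153 without MII replicate 2 (1.75) or EpiC replicate 2 (1.34), Nup50 without EpiC replicate 1 (0.92) or EpiC replicate 2 (0.97), and Seh1l without EpiC replicate 2 (0.80). Both MII libraries lay above both EpiC libraries in TPM for 16 members (24.8% of all genes) and below them for 11 (61.6% of all genes). The MII libraries are those of MII against GV, and the EpiC libraries those of EpiC against ESC.

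Nup35 had 642 and 708 TPM in MII against 60.8 and 41 TPM in EpiC, with a log2 fold change of 5.21 ± 0.39 (SE, with adjusted p = 9.49e-06), the largest positive value of the 30 members in this comparison. Nup37 had 399.8 and 288 TPM in MII against 95 and 32.5 TPM in EpiC (3.95 ± 0.48). Nup98 had 191 and 192 TPM in MII against 46.2 and 26.6 TPM in EpiC (3.74 ± 0.39). None of these 3 overlapped between the groups. Sec13, Nup62, Nup85 and Nup107 rose by 3.43 ± 0.40, 3.40 ± 0.38, 3.25 ± 0.41 and 3.01 ± 0.47.

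Nup133 had 0.0687 and 0.42 TPM in MII against 62.6 and 26.2 TPM in EpiC, with a log2 fold change of −5.92 ± 0.84 (SE, with adjusted p = 0.000256). Nup155 had 1.15 and 1.47 TPM in MII against 42.7 and 18.3 TPM in EpiC (−3.03 ± 0.46, adjusted p = 0.000376). Both scaffold genes were lower in every MII library than in any EpiC library. Nup62cl was called lower at −6.55 ± 0.69, and Nup210l was called at −3.20 ± 0.95, from 1 and 17 estimated counts in MII, with its call lost without MII replicate 1 (−2.35) or EpiC replicate 2 (−2.04).

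In the inner ring, levels were spread more widely in oocytes than in cultured cells. Within a library, the TPM ratio of Nup35 to Nup93 was 3.78 and 3.13 in MII, 2.92 and 2.61 in GV, 0.370 and 0.503 in EpiC, and 0.363 and 0.408 in ESC. Every oocyte library lay above every cultured library. The ratio of Nup155 to Nup93 was 0.00678 and 0.00649 in MII, 0.0503 and 0.0311 in GV, 0.260 and 0.224 in EpiC, and 0.289 and 0.268 in ESC, with MII lowest and GV next. Over the 5 ring genes, the SD of log2 TPM was 3.64 and 3.61 in MII, 2.34 and 2.73 in GV, 0.72 and 0.79 in EpiC, and 0.68 and 0.72 in ESC.

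**Figure D4:**
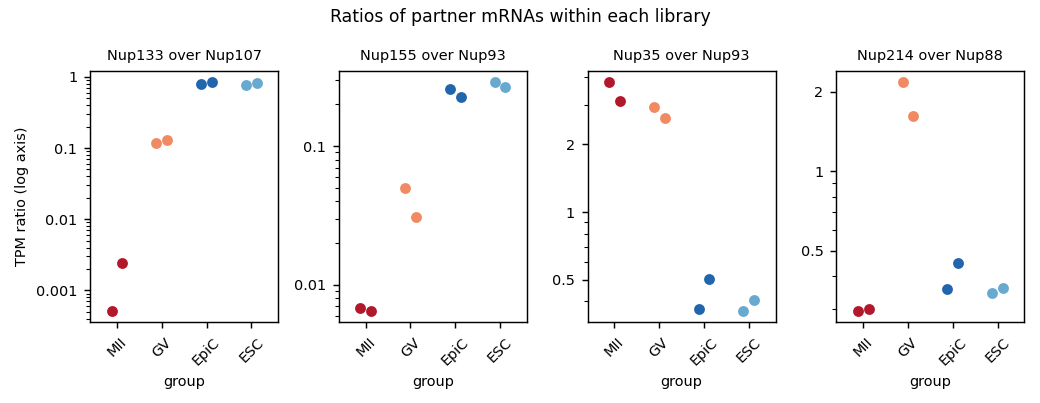
TPM ratio, on a log axis, of 4 pairs of nucleoporin mRNAs that encode partners, in each library of MII and GV oocytes, EpiC and ESC. Nup133 over Nup107 is 0.000512 and 0.00241 in MII, and Nup214 over Nup88 is above 1 in the GV libraries alone.

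By mean TPM, Nup35 ranked 1 of 30 in MII and GV but 19 in EpiC and ESC. Nup214 ranked 19 in MII, 3 in GV, 22 in EpiC and 21 in ESC, and Nup98 ranked 7, 15, 23 and 20 in that order of groups. Nup133 ranked 28 in MII, 24 in GV, 20 in EpiC and 18 in ESC. Sec13 stayed between ranks 1 and 3 and Nup85 between 1 and 4 in every group.

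Members with long mRNAs had the lower folds in both comparisons of oocytes with cultured cells. Across the 30 members, the Spearman correlation of the length of the most abundant coding transcript with the log2 fold change was −0.58 in GV against ESC and −0.43 in MII against EpiC, and −0.00823 in MII against GV. Genes are not independent replicates, and the points share libraries, so no p is given. Of the 12 members of at least 5000 bases, 1 was higher and 5 lower in GV against ESC, and of the 18 under 5000 bases 5 were higher and 2 lower. Over all genes tested, 28.3% were higher and 31.3% lower, and 5 higher of 18 lies near that share. The class limit was chosen after the values had been seen. With an offset for effective length, 5 members were higher and 7 lower in GV against ESC. That offset adjusts a gene only for differences in its effective length between libraries. It therefore cannot test the relation between long and short genes.

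The members had 155 transcripts in the tables, 67 of them protein-coding, and 7 members had 1 transcript each. The leading transcript changed between groups for Nupl2, Nup210, Nup210l and Nup62cl. Nupl2 encodes the filament protein that binds the export factor Gle1 (Nup42), and its coding transcript Nupl2-001 had 3.67 and 3.52 TPM in MII, 2.85 and 2.05 TPM in GV, 5.93 and 6.83 TPM in EpiC and 6.07 and 8.43 TPM in ESC. Nupl2-002, annotated as a target of nonsense-mediated decay, had 11.7 and 13.1 TPM in MII, 2.95 and 3.89 TPM in GV, 2.73 and 0.673 TPM in EpiC and 1.62 and 0.623 TPM in ESC. Its share of the gene was 75.3% and 78.9% in MII, 50.1% and 64.9% in GV, 29.4% and 7.17% in EpiC and 17.8% and 5.11% in ESC. Every oocyte library lay above every cultured library. As a share of the gene's estimated counts it was 62.8% and 66.6% in MII and 35.4% and 50.2% in GV, so on that scale it held most of the gene in 1 of the 2 GV libraries.

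The gene as a whole was called higher in MII against GV (2.42 ± 0.38, adjusted p = 0.00114) and in MII against EpiC (1.90 ± 0.37, adjusted p = 0.00172). With protein-coding transcripts only, the log2 fold change in MII against EpiC was 0.37 (adjusted p = 0.483) and did not pass.

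**Figure D5:**
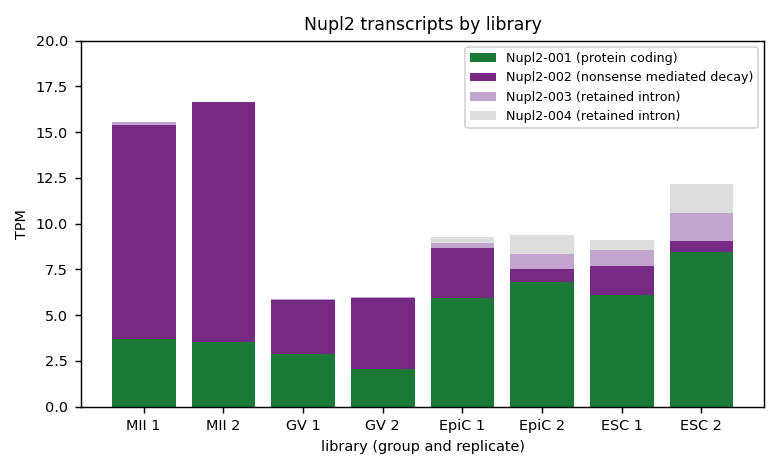
TPM of the 4 Nupl2 transcripts, stacked, in each library of MII and GV oocytes, EpiC and ESC. The transcript annotated for nonsense-mediated decay makes up most of the MII bars and the coding transcript most of the EpiC and ESC bars.

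Nup210-011, a transcript with a retained intron, held 41.8% and 50.1% of Nup210 in GV, while the coding Nup210-002 held 30.3% and 32.6%. In ESC the coding transcript held 77.3% and 48.5% and Nup210-011 held 0% and 0.89%. The coding Nup210l-001 led in GV alone, and the coding Nup62cl-005 in both MII libraries, in each case at levels under 1 TPM.

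Nup98 encodes a precursor that is cut into Nup98 and the Y complex protein Nup96, made from the long transcript Nup98-001 of 1816 codons, and shorter forms. Nup98-001 had 81.4 and 114 TPM in MII, 26.7 and 26.1 TPM in GV, 31.1 and 20.7 TPM in EpiC and 33.4 and 23.6 TPM in ESC. Its share was 42.6% and 59.5% in MII, 49.3% and 76.4% in GV, 67.4% and 78% in EpiC and 62.6% and 65.3% in ESC, ranges that overlap between MII and GV. These transcripts were picked after their values were seen. The shorter coding Nup98-003 of 1170 codons had 65.4 and 58.5 TPM in MII against 17.8 and 5.14 TPM in GV. Both forms were higher in every MII library than in any GV library.

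Retained-intron transcripts of all members took 0.483% and 1.98% of the members' TPM in MII, 1.23% and 2.23% in GV, 3.20% and 10.4% in EpiC, and 3.49% and 9.04% in ESC. Replicate 2 had the larger share in every group.

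All 6 members with TTTTAT or TTTTAAT at the 3′ end, listed above, were called higher in MII against GV, with log2 fold changes from 1.56 to 3.22 and a median of 2.35. Of the 20 members without, 13 were called higher, with a median of 1.84. Among all 30 members 20 were called higher, beside 17.4% of all genes. The share called among all genes with the motif was not computed. The labels do not state a poly(A) selection, and the part of poly(A) tail length in these folds was not tested.

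Genes that work with the pore moved in both directions in MII against GV. Of 12 pore-linked genes outside the symbol rule, 7 rose, 2 fell and 3 did not pass, beside 17.4% of all genes higher and 22.2% lower, the shares that apply to each list in this comparison. Gle1, which activates the export helicase at the filaments, had 337 and 374 TPM in MII against 121 and 142 TPM in GV (2.68 ± 0.35, adjusted p = 0.000609). Ahctf1 (ELYS), which seeds pores on chromatin, rose by 3.37 ± 0.56, and Mad2l1, a checkpoint protein that docks at the basket, by 2.92 ± 0.41. Rangap1, the GTPase activator of Ran on the filaments, had 0.356 and 1.06 TPM in MII against 10.7 and 13.4 TPM in GV (−2.89 ± 0.52, adjusted p = 0.00204), with no overlap.

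Of 19 mRNA export genes, 9 rose, 6 fell and 4 did not pass in MII against GV. Nxf1, the main mRNA export receptor, had 2.31 and 4.89 TPM in MII against 92.7 and 99.2 TPM in GV (−3.57 ± 0.43, adjusted p = 0.000545), and the export helicase Ddx39b had 1.32 and 3.72 TPM in MII against 80.9 and 128 TPM in GV (−4.22 ± 0.56). Neither overlapped between the groups. Nxt2, a partner of export receptors, rose by 3.64 ± 0.59, and Thoc2 of the THO complex by 3.39 ± 0.77.

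Of 21 genes of the lamina, inner nuclear membrane and envelope closure, 9 rose, 2 fell and 10 did not pass. Lmna, which encodes A-type lamins, fell (log2 fold change −3.21 ± 0.61), and Lmnb1, a B-type lamin, rose by 3.07 ± 0.44. Of 8 kinases that act on the envelope at division, Cdk1, Nek6 and Nek2 fell, with log2 fold changes of −4.94 ± 0.64, −3.05 ± 0.69 and −2.06 ± 0.32, Nek7 rose by 1.54 ± 0.38 and 4 did not pass. In EpiC against ESC, 0 of the 12 pore-linked genes, 0 of the 19 export genes and 0 of the 8 kinases passed in either direction, and 3 of the 21 envelope genes fell. With 5.46% of all genes called in either direction, counts of 0 in lists of this size are near the background and say nothing particular of these genes. The 3 envelope genes that fell were Sun2, Sun1 and Syne2, which link the nucleus to the cytoskeleton, at −1.69 ± 0.39, −1.68 ± 0.34 and −1.61 ± 0.36.

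In GENCODE M21, 10 members shared exon bases with another gene and 5 of them on the same strand, among them Nup62 with Il4i1 (97 bases), Nup35 with Dusp19 (131 bases) and Nupl1 with Gm49336 (1756 bases). Reads from shared bases could be assigned to either gene. Nup133 shared 461 bases with Gm29773 on the opposite strand, and the labels do not state whether counting used strand.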

How the data were processed

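Total RNA was sequenced in 8 libraries, 2 per group. The authors deposited a table per library with estimated counts and TPM per transcript; kallisto 0.43 and mm10 are named per the submitters' processing notes. Both were summed per gene over the gene identifier field of each transcript's name, and the expected counts were rounded to whole numbers. edgeR 4.0.16 in R 4.3.3 fitted all 8 libraries with 1 mean per group (filterByExpr, TMM, robust quasi-likelihood, 4 residual degrees of freedom), and p-values were adjusted by Benjamini-Hochberg over 25045 genes, with a threshold of 0.05. The SE is approximate, the size of the log2 fold change divided by the square root of the F statistic. The script was also tested on simulated data.

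Alternatives used relative log expression, DESeq2 1.42.0, no count filter, a length offset, limma 3.58.1 on log2(TPM + 1) or log2(TPM + 0.1), protein-coding transcripts or genes only, a replicate block, the compared groups only, and each library left out in turn. Python 3.11.15, pandas 2.3.3 and scipy 1.17.1 built the tables. Transcript models came from GENCODE M21 and promoters from RefSeq.

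No label ties the replicates to separate animals or cultures, so p-values measure only the spread between these libraries, which may be technical. The members and gene lists were chosen with earlier results of these data known. Values in each library were given for called members with the largest folds, up to 8 per direction, and for members whose difference between the pairs was called. From each other list, up to 3 called genes per direction were named. Transcripts were named where the leading one changed between groups or non-coding ones held most of the TPM. The motifs, the ratios within a library, the class of 5000 bases, the counts of non-overlapping members and the Nup98 transcripts were chosen after the values had been seen.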

Additional observations from a re-analysis of the deposited data

Results flagged for a closer look

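For 16 members, the change in MII against GV differed from the change in EpiC against ESC by a test of the difference itself. The difference of the log2 fold changes was positive for 15 of them. In the Y complex it was 1.99 for Nup107, 1.68 for Nup85, 1.87 for Sec13 and 2.93 for Seh1l, and in the inner ring 1.98 for Nup93 and 2.10 for Nup35. In the central channel it was 2.69 for Nup62, 2.17 for Nup54 and 2.37 for Nupl1. On the cytoplasmic side it was 2.08 for Nup88, 3.46 for Nup98 and 2.52 for Nupl2. In the membrane it was 2.60 for Nup210 and 2.33 for Pom121, and in the basket 3.30 for Tpr. Nup133, with −4.27, was the member with a negative difference. Of these 16 calls, Nup133, Nup62 and Nup98 kept theirs under every alternative run. With protein-coding transcripts only, Nupl2 had a difference of 1.79 (adjusted p = 0.0574). Calls were lost when 1 library was left out for 7 members. For Nup107 this was so without either MII library (2.11 without replicate 1 and 1.65 without replicate 2), either GV library (1.99 and 1.89), EpiC replicate 2 (1.57) or ESC replicate 1 (1.58). For Nup85 it was so without any library but EpiC replicate 1, with values from 1.32 (without EpiC replicate 2) to 1.85 (without GV replicate 2). Without EpiC replicate 2 or ESC replicate 1, the values were 1.69 and 1.78 for Nup93, 1.97 and 2.07 for Nupl1, and 1.70 and 1.65 for Sec13, none of them called. The calls of Nup93 and Sec13 were also lost without MII replicate 2 (1.63 and 1.55) or GV replicate 1 (1.87 and 1.54), that of Nup93 without GV replicate 2 (1.99), and that of Nupl1 without MII replicate 1 (2.15) or GV replicate 2 (1.99). Nup88 lost its call without ESC replicate 1 (1.97), and Tpr without MII replicate 1 (2.87).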

How the results depend on the processing

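Of 77 called results of members, 30 kept direction and call under every alternative run, and of their 1126 alternative values 979 were still called, 139 were not and 8 had the opposite sign. Apart from limma, which changes the test and the scale together, 19 in place of 9 of 22 calls were kept in MII against GV, 17 in place of 12 of 25 in MII against EpiC, and 8 in place of 3 of 16 in the difference, while 6 of 13 in GV against ESC and 0 of 1 in EpiC against ESC were kept either way. With limma on log2(TPM + 1) and log2(TPM + 0.1), the median of all genes moved by −0.61 and −1.02 in MII against GV, and 8 members were higher under both and 4 and 5 lower. In MII against EpiC 10 were higher and 7 lower under both, and the difference between the pairs was positive for 5 and 4 and negative for 2. Under both limma fits the sign turned in MII against EpiC for 4 called members, Aaas (−0.30 and −0.31), Nup153 (−0.0225 and −0.0220), Nup50 (−0.50 and −0.51) and Seh1l (−0.13 under both), and for Nup160 (−0.50 and −0.51) and Nup43 (−0.98 and −0.999), which were not called. In MII against GV it turned for 3 members without a call, Aaas (−0.69 and −0.70), Nup50 (−0.37 and −0.38) and Nup205 (−0.13 under both). It also turned, without a call, for 5 members in GV against ESC, 1 in EpiC against ESC and 4 in the difference. Relative log expression and the length offset each left 1 member lower in MII against GV. With the compared groups only, 0 members were lower in EpiC against ESC and 10 higher in GV against ESC. As a share of estimated counts, Nupl2-002 had 64.7% in MII and 42.8% in GV. Apart from the construction of each alternative, the cause was not tested.

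Leaving out 1 library at a time gave 18 to 20 members higher and 1 to 2 lower in MII against GV, 0 higher and 0 to 1 lower in EpiC against ESC, 3 to 7 higher and 4 to 6 lower in GV against ESC, 16 to 20 higher and 3 to 4 lower in MII against EpiC, and a difference between the pairs that was positive for 9 to 18 and negative for 1. The low counts came without ESC replicate 2 (3 higher) and GV replicate 2 (4 lower) in GV against ESC, and without ESC replicate 1 (9 positive) in the difference. With the replicate block, 21 members were higher and 2 lower in MII against GV, 0 and 1 in EpiC against ESC, 9 and 7 in GV against ESC, and 22 and 4 in MII against EpiC, and the difference was positive for 20 and negative for 1. The difference of replicate 1 from replicate 2 was correlated between groups over 25045 genes. The correlation was 0.310 for MII and GV, 0.712 for EpiC and ESC, −0.015 for GV and ESC, and 0.014 for MII and EpiC. EpiC and ESC thus shared much of their replicate difference, and its source was not tested. The labels state no pairing. With 2 libraries a group, small changes may have gone uncalled, and Nup210l and oocyte Nup62cl rest on few counts.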

Other observations

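The lists of genes around the pore were also set between oocytes and cultured cells, comparisons that share their libraries with those above. In GV against ESC, 5 of the 12 pore-linked genes were higher and 5 lower, and in MII against EpiC 7 were higher and 3 lower. Over all genes, 28.3% were higher and 31.3% lower in GV against ESC, and 28.5% higher and 39.6% lower in MII against EpiC, and several of the counts given here lie near or below these shares. Gle1 was called higher in both, at log2 fold changes of 2.99 in GV against ESC and 5.37 in MII against EpiC, and Rangap1 was lower in both, at −2.97 and −6.21. Of the 19 mRNA export genes, 3 were higher and 4 lower in GV against ESC, and 10 higher and 5 lower in MII against EpiC, where Eny2 of the TREX-2 complex rose by 4.31 and Ddx39b was called at −5.63. Of the 21 envelope genes, 5 were higher and 10 lower in GV against ESC, and 6 higher and 7 lower in MII against EpiC. Of the 8 kinases, 3 were higher and 2 lower in GV against ESC, and 2 higher and 4 lower in MII against EpiC.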
